A study of Mus musculus with 12 samples.

Results

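The genes described here encode the conjugating and ester-cleaving enzymes of drug and lipid metabolism in the mouse small intestine. They were chosen by symbol alone, as the UDP-glucuronosyltransferases (Ugt1a and Ugt2), the cytosolic sulfotransferases (Sult) and the carboxylesterases (Ces), and 41 of the 16942 genes in the deposited table met the rule. They comprised 8 Ugt1a, 8 Ugt2, 4 Sult1, 4 other Sult, 7 Ces1, 7 Ces2 and 3 Ces3 to Ces5 genes. No measured value entered that choice.

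Small-intestinal RNA of ICR mice, which are outbred, was sequenced in 12 libraries, 3 in each of 4 groups. The study's design text names busulfan, a DNA-alkylating drug that is toxic to dividing cells, and AOS, which the labels do not expand and give as 0 or 10 with no unit. AOS0 received neither agent (AOS 0, no busulfan), AOS10 received AOS 10 alone, B+A0 was labelled with B and AOS 0, and B+A10 with B and AOS 10. B was read as busulfan, the other agent named. Every sample title begins with W5, which the sources used here do not expand, and they state no age, sex, dose, route or time after treatment in other words. Whether the libraries of a group are separate animals is not stated, and p-values then reflect only the spread among these samples, which may be technical.

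Carboxylesterases of the endoplasmic reticulum hydrolyse esters and amides of drugs and of lipids, which exposes hydroxyl and carboxyl groups. UDP-glucuronosyltransferases of the same membrane then transfer glucuronic acid from UDP-glucuronic acid onto such groups, and cytosolic sulfotransferases transfer sulfate from the donor PAPS. In the intestine these enzymes are made mainly by enterocytes, the absorptive cells of the villus, where they act on orally taken drugs, dietary phenols, bilirubin and steroids before these reach the blood.

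Library totals ranged from 13560232 to 16818245 counts, and 12329 genes passed the filter on low counts. Of the 41 members, 29 passed and were tested. Untested were Ces1h, Ces3a, Ces3b, Ces4a, Sult4a1, Sult6b1, Ugt1a2, Ugt1a5, Ugt1a10, Ugt2a1, Ugt2b1 and Ugt2b38. Their highest FPKM (fragments per kilobase of transcript, scaled to the library's total, a level adjusted for gene length) in any library was 0.49, and their largest count was 14. A count of 0 allows a level of up to 0.178 to 0.221 CPM (counts scaled to the library's total) in these libraries, taken as 3 counts of the total and covering counting error only.

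The summed level of 19 enterocyte markers was between 7091 and 14649 FPKM across the libraries, and the enterocyte gene Vil1 was at 524.7 FPKM or more in each. The labelled tissue therefore showed its defining markers. Smooth muscle markers summed to at most 1.64 FPKM. Hepatocyte markers summed to 124.9 to 413.3 FPKM, of which Apoc3, an apolipoprotein gene that enterocytes also express, made up 121.3 to 409.7 FPKM. Among the other 8 markers of that list, Tat reached 4.31 FPKM, Ttr 1.84 FPKM and Serpina1b 1.32 FPKM, and the defining gene Alb was at 0.1 FPKM or less. Pancreatic acinar markers summed to 2.95 to 3.97 FPKM, mostly from Cela1 (2.8 to 3.71 FPKM), and the defining gene Prss2 was at 0.09 FPKM or less. In bulk tissue, fewer cells of a type and less RNA per cell cannot be told apart.

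Part of the family is arranged in gene clusters. On chromosome 5 (GRCm38), 10 members, all 8 Ugt2 genes with Sult1b1 and Sult1d1, lay within chr5:86889770-87569006, a stretch of 679.24 kb in which no tested gene was a non-member. The 8 Ugt1a genes overlapped each other at chr1:88055411-88220002, where each isoform has its own first exon and the remaining exons are shared. The Ces1 genes lay at chr8:93056725-93379777, the Ces2 genes at chr8:104734003-105020410 and Ces3a, Ces3b and Ces4a at chr8:105048576-105150109.

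The 120 bases before the transcription start of 4 genes of the chromosome 5 cluster are given below, since these 4 fell in the comparison of B+A0 with AOS0. They are RefSeq sequences (GRCm38.p6), written 5′ to 3′ on the gene's own strand. Capitals mark CAATAAA, the letters of a motif of CDX2, a transcription factor of intestinal epithelium, and GCGTG, the core of the xenobiotic response element bound by the aryl hydrocarbon receptor, both searched on either strand.
Ugt2b5, chr5:87140341-87140460, minus strand: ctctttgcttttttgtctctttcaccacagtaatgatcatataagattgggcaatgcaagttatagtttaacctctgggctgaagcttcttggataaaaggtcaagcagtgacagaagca
Ugt2a3, chr5:87337196-87337315, minus strand: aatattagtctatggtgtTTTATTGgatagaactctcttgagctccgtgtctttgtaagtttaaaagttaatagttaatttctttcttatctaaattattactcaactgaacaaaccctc
Sult1b1, chr5:87538196-87538315, minus strand: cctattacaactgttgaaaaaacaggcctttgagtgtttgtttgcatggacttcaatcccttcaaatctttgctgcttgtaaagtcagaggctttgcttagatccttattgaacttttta
Sult1d1, chr5:87569007-87569126, minus strand: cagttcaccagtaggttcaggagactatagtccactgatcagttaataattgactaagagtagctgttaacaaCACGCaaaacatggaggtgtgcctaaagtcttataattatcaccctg

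CAATAAA was found once, on the opposite strand, 102 bases before the Ugt2a3 start, and GCGTG once, on the opposite strand, 47 bases before the Sult1d1 start. Neither was found in the windows shown for Ugt2b5 and Sult1b1. Over 250 bases before the start, 38 windows of the 35 members with an entry were searched, and the shares are set against all 32851 windows. A TATA box (TATAAA) was in 5 of 38 windows against 12.4% of all. The xenobiotic response element core GCGTG was in 4 of 38 against 28.2%, and the antioxidant response element TGACNNNGC in 0 of 38 against 10.2%. An HNF4 motif (CAAAGTCCA) was in 0 of 38 against 0.384%, and a CDX2 motif (CAATAAA) in 1 of 38, Ugt2a3, against 4.2%. A match is a description of the letters and not evidence of binding. Ces1d had no entry. The GENCODE transcripts of Ugt2b5 did not begin at the RefSeq start used here.

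Levels of the 41 members spanned over several orders of magnitude, and a small number of genes carried most of the summed level. Ces2e, an intestinal carboxylesterase 2 gene, had the highest level, a mean of 497.8 FPKM over 12 libraries, which ranked 206 among all genes. It made up 66.6% of the summed Ces2 level and 27.6% of the sum over all members. Ces2c followed with 187.7 FPKM, Sult1b1 with 186.3 FPKM, Ugt2b34 with 147.3 FPKM, Ugt1a7c with 141.3 FPKM, Ces1f with 140.0 FPKM, Sult2b1 with 136.9 FPKM and Ugt1a1 with 125.0 FPKM. The ranges of these 7 genes across libraries overlapped each other, so the ranges alone do not resolve their order. Compared within each library, Ces2c was above both Ces1f and Ugt1a1 in all 12. Sult1d1 came next, with 54.3 FPKM. Ces1d had a mean of 3.37 FPKM, far below Ces1f, the main Ces1 gene, which made up 80.8% of the Ces1 sum.

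**Figure D1:**
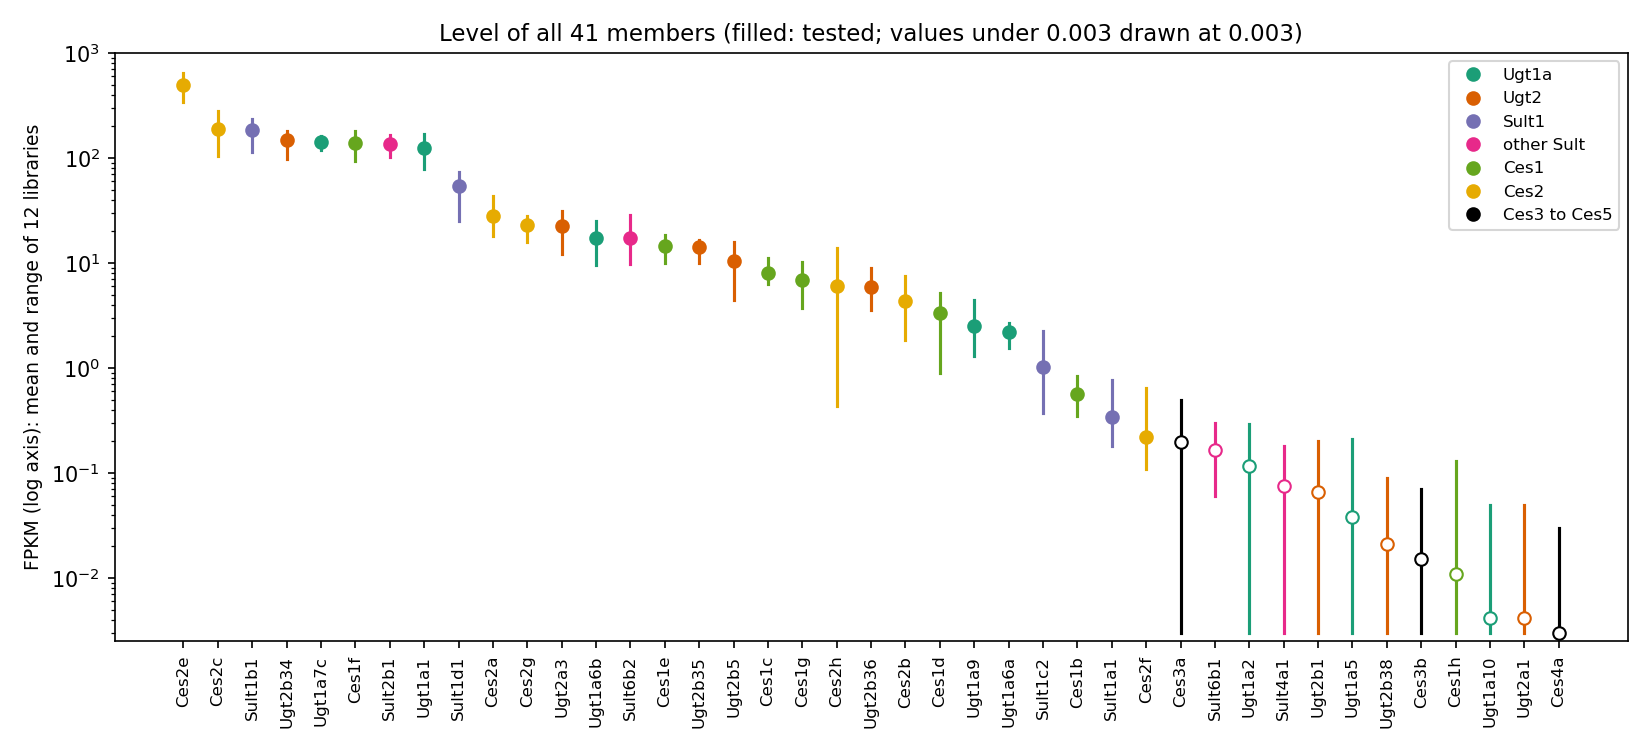
Each of the 41 members is drawn at its mean FPKM over 12 libraries (log axis) with a line from its lowest to its highest library, coloured by family; open points were not tested, and values under 0.003 are drawn at 0.003. Ces2e stands highest at 497.8 FPKM, and the 12 untested members sit at the low end.

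The comparison of B+A0 with AOS0 asks which of these transcripts differ after busulfan without AOS. Glucuronidation, sulfation and carboxylesterase transcripts mostly had lower values after busulfan, and 5 fell, 4 of them in the chromosome 5 cluster. Ugt2a3 and Ugt2b5, which glucuronidate steroids and other lipophilic compounds, Sult1b1 and Sult1d1, which sulfate phenols and monoamines, and Ces1d, a hydrolase of triacylglycerol and xenobiotic esters, fell 1.56- to 3.27-fold. No member rose. The 5 stand among 29 tested members, where 1.94% of all tested genes were called lower and 1.7% higher. The log2 fold change was below 0 for 27 of 29 members, against 51.2% of all tested genes, and its median was -0.28 against -0.0072. An unadjusted p under 0.05 was found for 14 members (48.3%), against 22.1% of all tested genes. In CPM scaled by edgeR, the 2 groups did not overlap, with B+A0 lower, for 10 members, where 14.6% of all tested genes did so, and with B+A0 higher for 0 members against 14.4%.

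Ugt2a3 measured 31.6, 29.2 and 23.2 FPKM in AOS0 and 15.5, 18.7 and 12.2 FPKM in B+A0. All 3 B+A0 libraries lay below all 3 AOS0 libraries. The log2 fold change was -0.82 (SE 0.163, edgeR quasi-likelihood test with Benjamini-Hochberg adjustment over all tested genes, adjusted p = 0.0241). In AOS10 it stood at 22.9, 28.9 and 26.9 FPKM and in B+A10 at 18.7, 24.8 and 18.9 FPKM. The B+A10 libraries were all above those of B+A0 and overlapped with those of AOS10.

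Ugt2b5 measured 13.5, 15.7 and 12.9 FPKM in AOS0 and 6.17, 9.85 and 4.48 FPKM in B+A0, without overlap. It fell by 1.00 on the log2 scale (SE 0.221, edgeR adjusted p = 0.0315), the second largest change among the 5 called members. AOS10 gave 9.82, 11.3 and 11.1 FPKM, and B+A10 gave 7.64, 10.1 and 11.8 FPKM. Both groups with AOS lay below every AOS0 library. Of the 50-base words in its transcript, 34.8% also occur in its paralogue Ugt2b38. Ugt2b38 had 2 counts or fewer in each library, whereas Ugt2b5 had 133 to 415. The deposited Ugt2b5 count was not whole in 4 libraries, and how shared reads were split was not tested.

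The sulfotransferase Sult1b1 measured 225.2, 213.3 and 237.3 FPKM in AOS0 and 172.9, 131.2 and 113.8 FPKM in B+A0. No B+A0 library reached the lowest AOS0 value. The change was -0.64 (SE 0.152, edgeR adjusted p = 0.0406). AOS10 stood at 189.1, 224.7 and 223.1 FPKM and B+A10 at 141.7, 189.1 and 173.7 FPKM, so that the 3 B+A10 libraries were also all below AOS0. Sult1d1, its neighbour, had 73.4, 67.1 and 55.8 FPKM in AOS0 and 38.8, 48.3 and 25 FPKM in B+A0, a change of -0.77 (SE 0.184, edgeR adjusted p = 0.0406), again without overlap. It was at 56.2, 66.5 and 56.9 FPKM in AOS10 and at 46.0, 59.3 and 58.1 FPKM in B+A10, both overlapping AOS0.

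Ces1d showed the largest fold change and the lowest level of the 5. It measured 3.91, 5.20 and 2.97 FPKM in AOS0 and 0.89, 1.46 and 1.23 FPKM in B+A0, which did not overlap. It fell by 1.71 on the log2 scale, or 3.27-fold (SE 0.349, edgeR adjusted p = 0.0266). AOS10 gave 4.80, 5.07 and 5.23 FPKM, while B+A10 was spread from 1.66 to 5 FPKM, with its 3 libraries above B+A0. Only 1.28% of its 50-base words occur in another member.

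**Figure D2:**
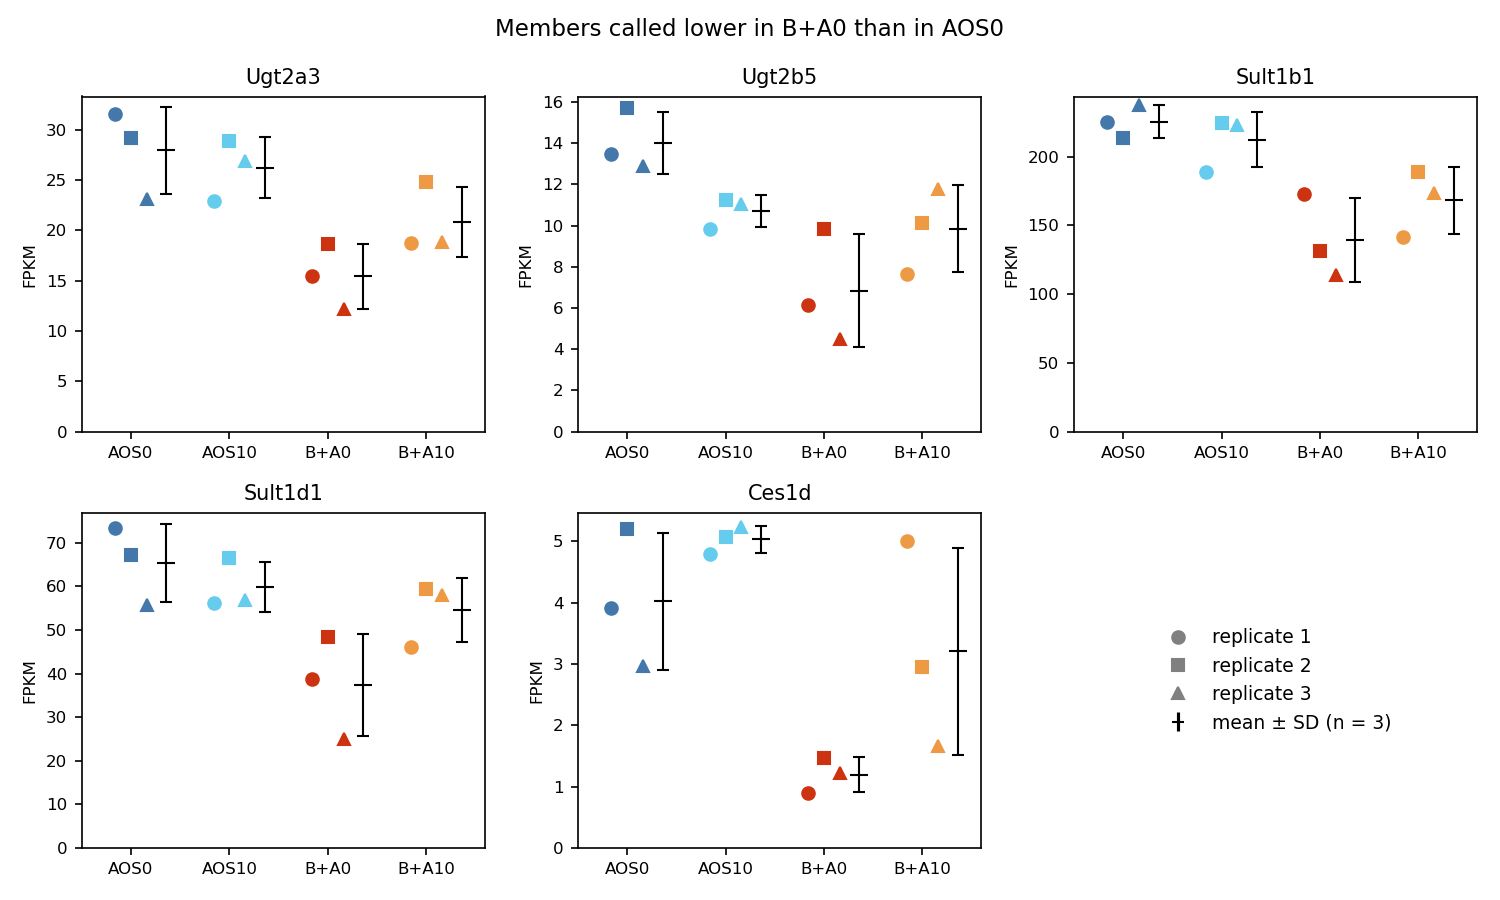
FPKM (linear axis from 0) of the 5 members that fell in B+A0 relative to AOS0, 1 point per library, with replicate numbers as marker shapes and the mean ± SD (n = 3) beside each group. In each panel all 3 B+A0 points lie below all 3 AOS0 points, for Ces1d between 0.89 and 1.46 FPKM against 2.97 to 5.20 FPKM.

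In the chromosome 5 cluster, 7 of the 10 genes were tested, and all 7 had a log2 fold change below 0 and an unadjusted p under 0.05, with a median of -0.66. The 4 that fell lie there. Ugt2b36 (-0.66, edgeR adjusted p = 0.0742) and Ugt2b34 (-0.42, edgeR adjusted p = 0.0858), the most abundant Ugt2 gene, did not overlap between groups but missed the threshold. Ugt2b34 was at 162.8, 167.4 and 158.3 FPKM in AOS0 and 130.2, 128.5 and 97.3 FPKM in B+A0. Ugt2b35 had -0.28 (edgeR adjusted p = 0.220). The summed level of the 10 genes was 518.2 ± 9.27 FPKM (SD, n = 3) in AOS0 and 334.4 ± 57.7 FPKM in B+A0. For the other 22 tested members the median was -0.25, with 20 below 0 and 1, Ces1d, called. The difference between the cluster and the other members was not tested.

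In the other families no gene but Ces1d was called, though some fold changes were as large as those of called genes. Of 5 tested Ugt1a genes all were below 0, with a median of -0.26. Ugt1a9 had the lowest value (-0.68, edgeR adjusted p = 0.169), with overlapping groups. Ugt1a6b was nearest to a call, with 19.1, 20.0 and 25 FPKM in AOS0 and 16.3, 14.3 and 9.52 FPKM in B+A0 (-0.64, edgeR adjusted p = 0.131), and its groups did not overlap. Ugt1a1, the bilirubin-conjugating enzyme, had -0.26 (edgeR adjusted p = 0.372). Between 53.9% and 96.0% of the 50-base words of a Ugt1a transcript occur in other members, so the authors' counting had to split shared reads and single isoforms are uncertain. The summed Ugt1a level was 286.8 ± 14.7 FPKM in AOS0 and 239.6 ± 29.1 FPKM in B+A0.

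Among the sulfotransferases outside the cluster, Sult1c2 had the largest difference without a call, -1.08 (SE 0.378, edgeR adjusted p = 0.120), at a low level of 1.22, 1.35 and 2.26 FPKM in AOS0 and 0.59, 0.82 and 0.80 FPKM in B+A0. Sult2b1, which sulfates cholesterol, was at -0.058 (edgeR adjusted p = 0.877). Sult1a1, the phenol sulfotransferase that is prominent in liver, was at 0.77 FPKM or less in every library.

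Ces1 genes other than Ces1d had values between -0.57 (Ces1g, edgeR adjusted p = 0.199) and -0.088 (Ces1b). Ces1f, the main Ces1 gene, was at 112.1, 157.5 and 165.1 FPKM in AOS0 and 129.1, 129.8 and 93.0 FPKM in B+A0, and those ranges overlapped. Among 7 Ces2 genes, 5 were below 0 and 2 above, Ces2a (0.22) and Ces2h (0.37, SE 1.02). Ces2e went from 502.3, 493.6 and 497.7 FPKM to 481.0, 402.6 and 339.6 FPKM (-0.25, edgeR adjusted p = 0.366), and its groups did not overlap in FPKM but did in scaled CPM. Summed over all 41 members the level was 1871 ± 65.2 FPKM in AOS0 and 1468 ± 245 FPKM in B+A0.

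**Figure D3:**
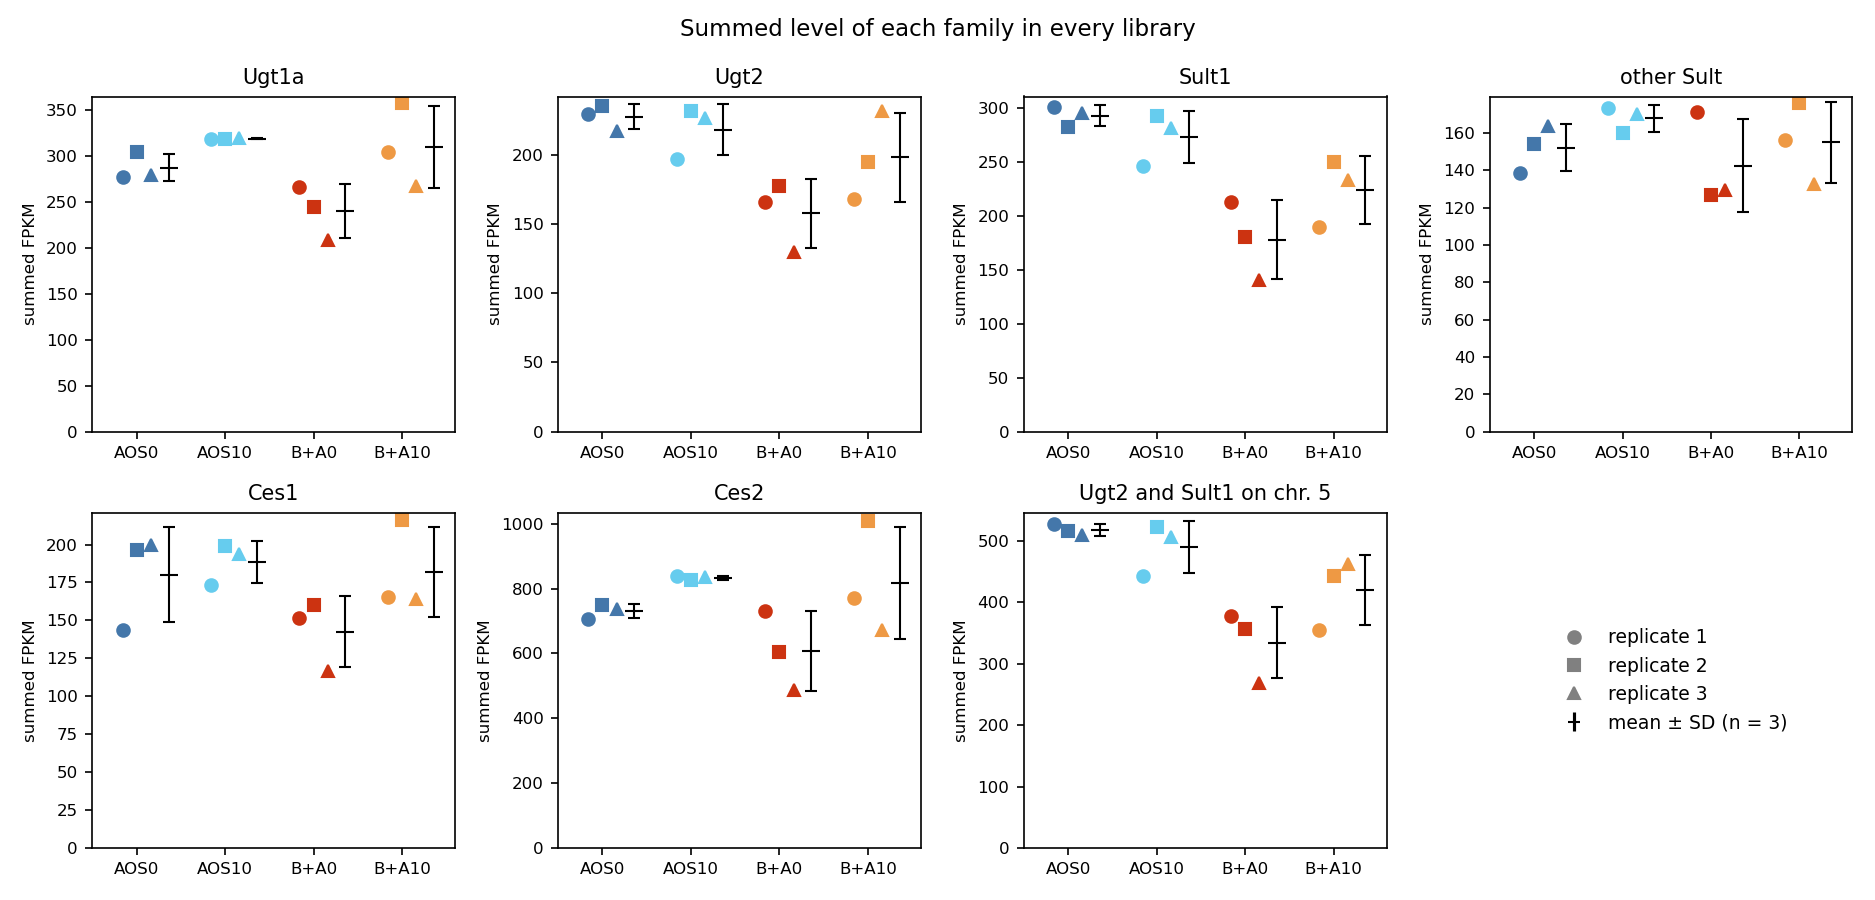
Summed FPKM of each family in every library (linear axes from 0), with the replicate number as marker shape and the mean ± SD (n = 3). For Ugt1a, Ugt2, Sult1 and the chromosome 5 cluster all B+A0 libraries lie below all AOS0 libraries. The Ces2 sums of 732.4, 604.3 and 486.9 FPKM in B+A0 reach into the AOS0 range of 707.0 to 749.4 FPKM.

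The 3 B+A0 libraries were not alike. Replicate 3 was the lowest of all 12 libraries for 19 of the 29 tested members (65.5%), against 13.9% of all tested genes. The summed enterocyte markers were 14126, 7091 and 7483 FPKM in B+A0 replicates 1, 2 and 3, against 11424 to 13130 FPKM in AOS0, with 18 of 19 markers below 0, a median of -0.26 and none called. Proximal small intestine markers summed to 3166, 1168 and 1714 FPKM in the same libraries, against 2628 to 3833 FPKM in AOS0. Of these, 9 of 12 were below 0, with a median of -0.51 and none called. Fabp1, Lct and Apoa4 are in both lists, so these sums are not independent. Distal small intestine markers summed to 3331, 2281 and 1641 FPKM in B+A0, against 2843 to 3459 FPKM in AOS0. Of the distal markers tested, 8 of 10 were below 0, with a median of -0.23 and none called. Markers of T and natural killer cells summed to 32.1 to 88.5 FPKM in B+A0 against 145.1 to 267.9 FPKM in AOS0, and 8 of 10 fell. Goblet cell markers were below 0 for 6 of 7 (median -0.21, 3 without overlap, none called), with sums of 8833 to 11669 FPKM against 12826 to 15263 FPKM. Paneth cell markers were above 0 for 6 of 6 (median 0.58, 5 without overlap, none called), with sums of 10062 to 13344 FPKM against 5936 to 9633 FPKM. Enteroendocrine markers were below 0 for 6 of 7 (median -0.20), and 2 fell. The part of these marker lists in the members' values was not tested.

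The count of 5 changed with the libraries used. No member was called when replicate 1 or 2 of AOS0 or replicate 3 of B+A0 was left out. Over all genes those fits called 42, 213 and 21, against 449 in the main fit. Without AOS0 replicate 3 only Ugt2a3 was called, among 53 genes over all. Without B+A0 replicate 2 there were 3 members among 112 genes, and without B+A0 replicate 1 there were 7 among 1099. That last fit tested 31 members, and its 7 included Ugt1a2, which was untested in the main fit. The log2 fold changes of the 5 stayed below 0 in each of these fits, and the call for Sult1b1 was lost with the replicate number as a block (edgeR adjusted p = 0.0774).

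Genes listed for the supply of the cosubstrates were not called in this comparison. None of 5 tested genes for UDP-glucuronic acid synthesis or nucleotide transporters of the SLC35 family passed. Among them were Ugdh (-0.11, edgeR adjusted p = 0.658) and Slc35b1, the nearest (edgeR adjusted p = 0.133). None of 10 for PAPS and sulfate passed, such as Papss2 (-0.22, edgeR adjusted p = 0.602). Of 3 deconjugating enzymes none passed, with the β-glucuronidase gene Gusb at 0.39 (edgeR adjusted p = 0.102). Of 11 other esterases and lipases all were below 0 and none passed, with the arylacetamide deacetylase gene Aadac nearest (-0.51, edgeR adjusted p = 0.0692).

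Of 23 tested nuclear receptors and transcription factors reported here, edgeR called none, and 4 (17.4%) had an unadjusted p under 0.05, against 22.1% of all tested genes. Nr1i3, the receptor CAR that controls drug-metabolism genes, had -0.67 (edgeR adjusted p = 0.0661), and Nr1i2, the receptor PXR, had -0.080 (edgeR adjusted p = 0.731). Of 8 listed drug and conjugate exporters 1 fell, Abcb1a, which encodes the drug exporter P-glycoprotein. It went from 17.7, 19.4 and 15.3 FPKM to 10.02, 12.9 and 7.57 FPKM (-0.75, edgeR adjusted p = 0.0282). The conjugate exporters Abcc2, Abcc3 and Abcg2 were not called. Of 7 tested glycosyltransferase and sulfotransferase genes outside the rule 1 fell, the glucosylceramide synthase gene Ugcg (-0.38, edgeR adjusted p = 0.0482).

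B+A10 against B+A0 asks what differs with AOS once busulfan has been given. Values were mostly higher with AOS, but no member passed. Of 29 tested members 24 had a log2 fold change above 0, against 51.8% of all tested genes, and the median was 0.39 against 0.0069. edgeR's quasi-likelihood test with Benjamini-Hochberg adjustment called 0 members and 0% of all tested genes in either direction, with 15 members (51.7%) and 9.81% of all tested genes at an unadjusted p under 0.05. DESeq2 called 1 member, Ces1d, among 76 genes over all. Groups did not overlap, with B+A10 higher, for 7 members, where 4.83% of all tested genes did so, and with B+A10 lower for 0 members against 5.41%. These were Ces1d, Ces1e, Ces2a, Ces2g, Sult1c2, Ugt1a6a and Ugt2a3. The comparison shares the B+A0 libraries with the one above, so the direction of the members in both rests in part on the same libraries, and B+A0 replicate 3 was the lowest library for most members. Without that library, 26 of 29 members were below 0 in B+A0 against AOS0, and 25 were above 0 in B+A10 against B+A0.

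Ces1d had the smallest p, with 0.89, 1.46 and 1.23 FPKM in B+A0 against 5, 2.96 and 1.66 FPKM in B+A10 (1.44, SE 0.350, edgeR adjusted p = 0.280). Ces2a measured 28.0, 21.4 and 18.3 FPKM against 43.2, 39.6 and 31.3 FPKM (0.76, SE 0.209, edgeR adjusted p = 0.284). Ugt1a1 measured 114.6, 95.7 and 77.7 FPKM against 137.6, 169.8 and 113.1 FPKM (0.55, SE 0.160, edgeR adjusted p = 0.307). All but 1 B+A10 library exceeded all B+A0 libraries for Ugt1a1. Lower values with AOS were found for 5 members, Sult6b2 (-0.47), Sult1a1 (-0.32), Ces2f (-0.24), Ces2h (-0.053) and Ces1b (-0.052), none of which passed. Within the chromosome 5 cluster all 7 tested genes were above 0, with a median of 0.33. Enterocyte markers moved in the same direction, 19 of 19 above 0 with a median of 0.29 and none called. So did markers of T and natural killer cells, 10 of 10 above 0 with a median of 1.13, 8 with an unadjusted p under 0.05 and none called, and enteroendocrine markers, 7 of 7 above 0 with a median of 0.34, 3 of them without overlap and none called. Paneth cell markers went the other way, 6 of 6 below 0 with a median of -0.25. The part of these lists in the members' values was not tested. B+A10 replicate 2, with the highest enterocyte sum (14649 FPKM), was also the highest of all libraries for 9 of 29 members (31.0%), against 7.95% of all tested genes.

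**Figure D4:**
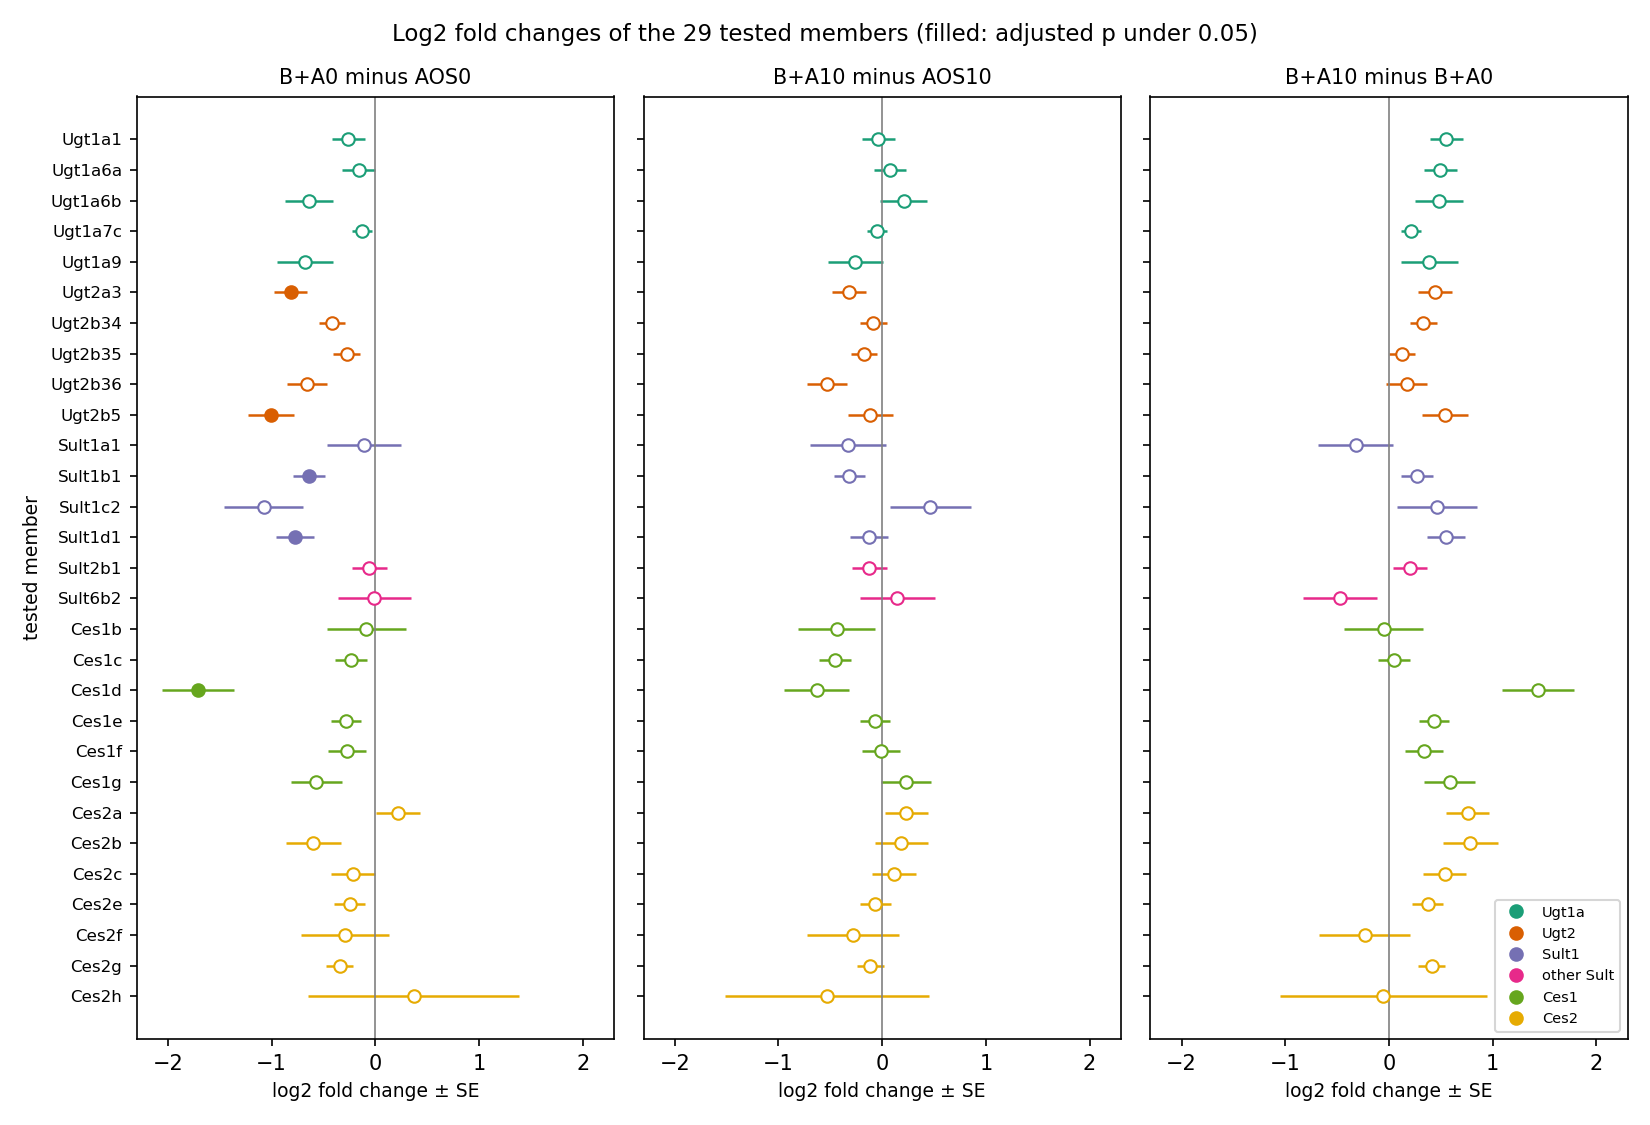
Log2 fold changes with their SE for the 29 tested members in 3 comparisons, coloured by family; filled points have an adjusted p under 0.05 (edgeR, Benjamini-Hochberg over all tested genes). The left panel has 27 of 29 points below 0 and 5 filled, the middle panel 21 below 0, and the right panel, which shares the B+A0 libraries with the left, 24 above 0; no point is filled in the middle or right panel.

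Busulfan was also compared in the presence of AOS, as B+A10 against AOS10. No member was called, with 0 of 29 by edgeR and DESeq2, where edgeR called 0.162% of all tested genes, and 2 members (6.90%) had an unadjusted p under 0.05, against 10.2% of all tested genes. The values lay below 0 for 21 members, against 49.1% of all tested genes, and the median was -0.11 against 0.0035. That number depended on the libraries used, with 16 members below 0 without B+A10 replicate 3 and 23 without B+A10 replicate 2. With single libraries left out, the median ranged from -0.20 to -0.028. The 2 members with an unadjusted p under 0.05 were Ces1c and Ugt2b36. Ces1c was at 9.27, 8.78 and 11.1 FPKM in AOS10 and 6.33, 7.44 and 7.32 FPKM in B+A10 (-0.45, edgeR adjusted p = 0.313). Ugt2b36 was at 5.40, 8.94 and 7.15 FPKM against 4.78, 4.74 and 5.25 FPKM (-0.53, edgeR adjusted p = 0.364). Both were lower without overlap, as were 6.92% of all tested genes, and no member was higher without overlap, against 7.97%. All 7 tested cluster genes on chromosome 5 were below 0, with a median of -0.17. Goblet cell markers were below 0 for 7 of 7 (median -0.25, 3 without overlap), and enteroendocrine markers for 6 of 7. Enterocyte markers were below 0 for 14 of 19, proximal markers for 10 of 12 and distal markers for 8 of 10. Paneth cell markers were above 0 for 6 of 6 (median 0.34). None of these markers was called, and their part in the members' values was not tested. The comparison of B+A10 with AOS10 shares no library with that of B+A0 and AOS0.

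The difference between the 2 busulfan comparisons was tested as an interaction. Low B+A0 values raise this difference, so its direction rests in part on the same libraries as that of B+A0 against AOS0. It was above 0 for 24 of 29 members, against 52.0% of all tested genes, with a median of 0.23 against 0.012, and no member passed, nor did any of all tested genes (0%) by edgeR. DESeq2 called 0 members. An unadjusted p under 0.05 was found for 7 members (24.1%), against 6.85% of all tested genes. Of 10 markers of T and natural killer cells, 9 had such a p in the interaction, with a median of 1.62, and their part was not tested. The smallest was that of Ugt2b5 (0.89, SE 0.309, edgeR adjusted p = 0.579), followed by Sult1c2 (1.54, SE 0.545, edgeR adjusted p = 0.589). A busulfan effect that differs with AOS was thus not detectable for any member in 3 libraries a group.

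AOS alone, compared as AOS10 against AOS0, gave 16 of 29 members above 0, against 47.8% of all tested genes, with a median of 0.043 against -0.0087. edgeR and DESeq2 called 0 members, edgeR called 0% of all tested genes, and 2 members (6.90%) had an unadjusted p under 0.05, against 6.23% of all tested genes. Ces2a measured 18.7, 23.2 and 18.1 FPKM in AOS0 and 22.9, 37.6 and 37.5 FPKM in AOS10 (0.74, SE 0.211, edgeR adjusted p = 0.476). Sult1c2 went the other way, at 0.37, 0.68 and 1.19 FPKM in AOS10 (-1.08, SE 0.381, edgeR adjusted p = 0.659). Groups did not overlap, with AOS10 higher, for 5 members, Ces2a, Ces2c, Ces2e, Sult2b1 and Ugt1a1, where 11% of all tested genes did so in scaled CPM, and with AOS10 lower for 1, Ugt2b5, against 9.67%. In FPKM the Ces2a ranges overlapped, with the lowest AOS10 library at 22.9 FPKM and the highest AOS0 library at 23.2 FPKM. Ces2e was at 559.1, 546.0 and 570.2 FPKM in AOS10, against 493.6 to 502.3 FPKM in AOS0 (0.19, edgeR adjusted p = 0.824).

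With both agents, B+A10 against AOS0, 13 of 29 members were above 0, against 50.04% of all tested genes, and the median was -0.14 against 0.00016. edgeR called 0 members and 0.957% of all tested genes, and 4 members (13.8%) had an unadjusted p under 0.05, against 15.7% of all tested genes. Ces2a was at the threshold, with all 3 B+A10 libraries (43.2, 39.6 and 31.3 FPKM) above all 3 AOS0 libraries (18.7, 23.2 and 18.1 FPKM), a change of 0.97 or 1.96-fold (SE 0.211, edgeR adjusted p = 0.0508). DESeq2 called Ces2a, as did edgeR with DESeq2's size factors, with no filter on low counts, with a stricter filter and without B+A10 replicate 3. Over all genes these fits called 444, 141, 151, 144 and 763, in that order, against 118 in the main fit. Groups did not overlap, with B+A10 higher, for 2 members, Ces2a and Ugt1a6a (9.25% of all tested genes), and with B+A10 lower for 4, Sult1b1, Sult1c2, Ugt2b5 and Ugt2b36 (8.6%). Ugt2b36, Sult1b1 and Ugt2a3 were the other 3 with an unadjusted p under 0.05, with changes of -0.49, -0.37 and -0.38.

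Individual libraries differed most in Ces2h, a little-studied carboxylesterase 2 gene. It measured 0.61, 10.1 and 3.29 FPKM in AOS0, 13.9, 10.1 and 0.81 FPKM in AOS10, 10.1, 0.43 and 6.92 FPKM in B+A0 and 4.28, 9.76 and 2.82 FPKM in B+A10. The highest library exceeded the lowest 32.2-fold, and the ranges of the 4 groups overlapped. AOS0, AOS10 and B+A0 each held a library at 0.81 FPKM or less, whereas the lowest B+A10 library was at 2.82 FPKM. Only 0.167% of its 50-base words occur in another member. The next widest range among tested members was 6.11-fold, for Sult1c2. Sult6b2, a sulfotransferase of little-known function, varied 2.94-fold over all libraries and also within AOS0, at 9.71, 24.2 and 28.5 FPKM. At the other extreme, Ugt1a7c ranged only 1.36-fold, from 118.5 to 160.7 FPKM.

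**Figure D5:**
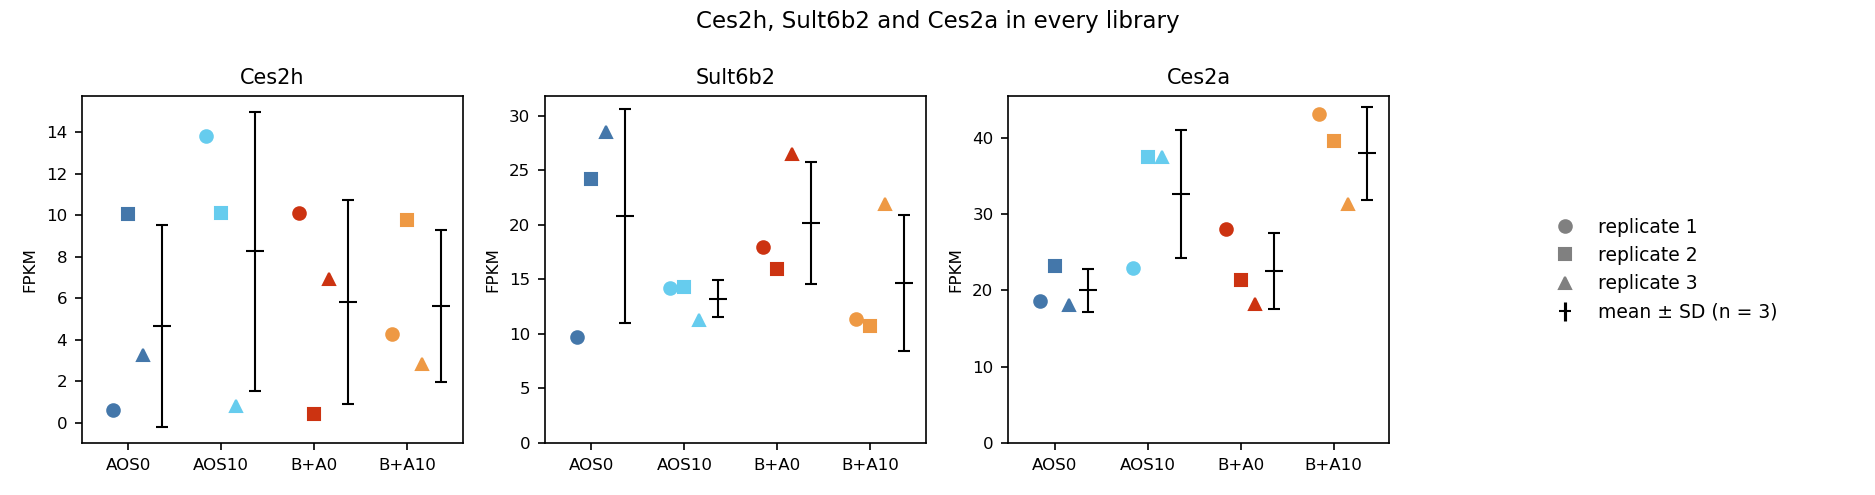
FPKM (linear axis) of Ces2h, Sult6b2 and Ces2a in every library, with the mean ± SD (n = 3) per group; the Ces2h bar of AOS0 reaches below 0 because its SD exceeds its mean. Ces2h libraries range from 0.43 to 13.9 FPKM and the ranges of the groups overlap, whereas for Ces2a the 3 B+A10 points lie above the 3 AOS0 points.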

How the data were processed

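A table of 12 total RNA libraries of mouse small intestine, with 16942 genes, was used, and the labels gave groups and replicate numbers. Reads were placed on mm10, per the submitters' processing notes. No aligner, counter, annotation or strand setting is named in the sources used here, so antisense and overlapping genes cannot be told apart. Expected counts deposited by the authors (read counts in the header's words) were rounded, as 8.90% to 9.33% of values were not whole (tolerance 1e-06). The authors' deposited expression columns were read as FPKM, although the header names no unit, because for 5071 genes above 500 counts the count divided by the value tracked library totals to within 0.149%. Averages over groups were not used.

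The test was edgeR 4.0.16 in R 4.3.3: filterByExpr kept 12329 genes, TMM factors were 0.969 to 1.05, and 1 quasi-likelihood model covered all 12 libraries. P-values were adjusted by Benjamini-Hochberg over all tested genes at 0.05. "Without overlap" refers to TMM-scaled CPM. SE was taken from the log2 fold change and its F statistic. Chi-square over degrees of freedom between replicates was 8.28 to 35.4, above counting noise in every pair. The test was checked on simulated data. Named members are those called in any comparison, the 3 most abundant of each family at 1 FPKM or more and the 3 smallest p-values per direction and comparison; others were added as examples after their values were seen. Some genes of the receptor and transcription factor list are not reported here, and its counts cover the rest. The members and lists were chosen with earlier results of these data known. Coordinates and promoters are from RefSeq (GRCm38.p6), matched by gene ID, and shared 50-base words were counted in GENCODE transcripts. Alternatives were DESeq2 1.42.0, its size factors, no filter or at least 10 counts in 6 libraries, fits to 2 groups, a replicate block, limma 3.58.1 on log2(FPKM + 1) and log2(FPKM + 0.1), and leaving out each library. Figures were drawn with matplotlib 3.10.9.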

Additional observations from a re-analysis of the deposited data

How the results depend on the processing

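In B+A0 against AOS0, 5 members were called by edgeR, and the count was 2 in a fit of the compared groups only (Ces1d and Ugt2a3), 1 by limma on log2(FPKM + 1) with no filter (Ugt2a3) and 0 to 7 when single libraries were left out. DESeq2 gave 7, and DESeq2's size factors, no filter, the stricter filter and limma with a pseudocount of 1 or 0.1 after the filter gave 5. With a replicate block the count was 4. The replicate numbers did not pair the libraries: same-numbered libraries correlated at -0.162 to 0.173, others at -0.237 to 0.334, and 2 of 12 libraries correlated best with their own number. Over all genes, 449 were called, against 1025 by DESeq2, 241 with the compared groups only, 193 with the block, 206 by limma with no filter and 21 to 1099 without single libraries. Log2 fold changes stayed below 0 for the 5 members in all 15 alternatives, from -1.87 to -1.18 for Ces1d, -1.33 to -0.77 for Ugt2b5, -0.95 to -0.67 for Ugt2a3, -0.97 to -0.55 for Sult1d1 and -0.84 to -0.51 for Sult1b1. In B+A10 against B+A0 the count of 0 became 1 (Ces1d) with DESeq2, and 0 to 1 without single libraries. In B+A10 against AOS0 it became 1 (Ces2a) with DESeq2, with DESeq2's size factors, with no filter and with at least 10 counts in 6 libraries, and 0 to 1 without single libraries. The causes were not tested. Over all genes the count ranged from 0 to 76 for B+A10 against B+A0, 0 to 138 for B+A10 against AOS10, 0 to 63 for AOS10 against AOS0, 12 to 763 for B+A10 against AOS0 and 0 to 17 for the interaction, where edgeR gave 0, 20, 0, 118 and 0. For B+A10 against AOS10, AOS10 against AOS0 and the interaction, 0 members were called under every alternative run. The filter on low counts left 12 members untested. Where a library was left out, its group kept 2 libraries and the fit pooled the spread over all groups.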
